A study of Mus musculus with 2 samples.

Results

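Microexons are internal exons so short that they add only a few codons to a protein. In the heart transcripts described here, 835 annotated internal exons of 3 to 27 bases lay in 647 expressed genes, out of 86216 annotated internal exons in the 8253 genes with at least 20 counts summed over both libraries. Members were taken from transcripts with a reference identifier, and their genes were chosen by a measured value, the summed count of the gene; inclusion itself was not used to choose them. Without that minimum 1538 exons of this length lay in genes with any count. Inclusion of an exon was the count of transcript models that held exactly this exon, divided by the count of multi-exon models that spanned its position with an intron or an exon. Of the members, 685 had at least 20 spanning counts, and the values below are for these unless stated.

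The data are long-read RNA sequencing of hearts from male mice of the strain B6CASTF1/J, 14 days of age, which are F1 hybrids of C57BL/6J and CAST animals. There was 1 group of 2 libraries, named replicate 1 and replicate 2, each made from 2 µg of total RNA, with no treatment and no genetic change named in the labels. Both libraries share a donor label, and their descriptions name the same tissue sample and mention 3 males without saying whether tissue was pooled, so the spread between them may be partly technical. With 1 group no conditions can be compared, and the tests compare these libraries or 2 exons on the same molecules. Replicate 1 held 1107678 counts and replicate 2 held 1110707, all 10 cardiomyocyte markers were detected (50300 and 50900 CPM when summed, that is counts scaled to the library's total on reference genes), and the 10 neuronal markers summed to 13 and 16 counts, with Nefm, Prph and Rbfox3 at 0.

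As background, microexons are best known from neurons and muscle, where tissue-specific RNA-binding proteins decide whether they are spliced in. A microexon whose length is a multiple of 3 adds or removes a few residues without moving the reading frame, often on a surface that binds other proteins. In heart and skeletal muscle, well-known cases lie in the MEF2 transcription factors, in troponin T and in proteins of the Z-disc and of membrane traffic.

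The sequences of the microexons that the values turn on are given first. All are reference sequence of the coding strand from the GENCODE M21 transcripts (assembly GRCm38, which is mm10), 5′ to 3′, not bases read in these hybrid mice. The microexon is in capitals and the 15 bases of the neighbouring exons on either side are in lower case. The first set holds microexons that were present in some molecules and absent from others, with the skipping intron running mostly between known splice sites; Dnm2 and Abi1 are each shown with a second microexon that has the same neighbours.
Tmed2, 21 bases, chr5:124543487-124543507, + strand: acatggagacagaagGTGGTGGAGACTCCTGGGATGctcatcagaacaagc
Anxa6, 18 bases, chr11:54987051-54987068, - strand: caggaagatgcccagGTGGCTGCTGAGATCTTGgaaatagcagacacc
Dctn1, 21 bases, chr6:83187764-83187784, + strand: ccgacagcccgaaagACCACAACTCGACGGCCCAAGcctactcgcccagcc
Mef2a, 24 bases, chr7:67244521-67244544, - strand: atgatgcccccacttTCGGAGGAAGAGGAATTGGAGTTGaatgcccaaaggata
Mef2d, 21 bases, chr3:88161781-88161801, + strand: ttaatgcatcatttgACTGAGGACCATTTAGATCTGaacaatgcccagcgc
Sptan1, 15 bases, chr2:30014158-30014172, + strand: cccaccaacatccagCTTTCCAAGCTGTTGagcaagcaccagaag
Dnm2, 12 bases, chr9:21490658-21490669, + strand: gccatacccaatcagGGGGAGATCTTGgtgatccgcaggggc
Dnm2, 12 bases, chr9:21489910-21489921, + strand: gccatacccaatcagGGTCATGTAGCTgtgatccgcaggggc
Abi1, 15 bases, chr2:22963214-22963228, - strand: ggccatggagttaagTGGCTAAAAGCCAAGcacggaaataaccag
Abi1, 15 bases, chr2:22971027-22971041, - strand: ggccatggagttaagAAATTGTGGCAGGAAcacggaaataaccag
Lrrfip1, 18 bases, chr1:91073324-91073341, + strand: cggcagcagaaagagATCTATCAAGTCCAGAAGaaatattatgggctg

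The second set holds microexons that every annotated transcript across the position contains, yet that part or all of the counts lacked. They are shown because measured inclusion in such exons moved with their length.
Atp2a2, 18 bases, chr5:122500931-122500948, - strand: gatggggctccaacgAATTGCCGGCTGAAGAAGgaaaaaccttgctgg
Bsg, 25 bases, chr10:79711256-79711280, + strand: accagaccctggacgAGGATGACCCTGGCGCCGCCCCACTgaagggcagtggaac
Hacd1, 19 bases, chr2:14044948-14044966, - strand: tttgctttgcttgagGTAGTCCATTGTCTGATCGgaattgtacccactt
Capn2, 12 bases, chr1:182482536-182482547, - strand: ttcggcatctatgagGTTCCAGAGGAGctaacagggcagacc
Pitpnb, 8 bases, chr5:111347120-111347127, + strand: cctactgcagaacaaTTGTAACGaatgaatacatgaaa
Mybpc3, 3 bases, chr2:91124275-91124277, + strand: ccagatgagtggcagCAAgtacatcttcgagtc

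Inclusion of microexons fell into extremes, and most annotated microexons were not seen. Inclusion was above 90% in 183 of 685 members (26.7%), between 10 and 90% in 67 (9.78%) and below 10% in 435 (63.5%). The same shares over all 67562 internal exons with enough counts were 84.1%, 6.48% and 9.43%. The median inclusion was 0% for microexons and 100% for exons over 27 bases. Of the 835 members, 344 were held by at least 1 count. At the edge of the rule, 24 of 82 microexons in genes of 15 to 19 counts were held at all, and 24 of 56 in genes of 20 to 24 counts.

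Measured inclusion rose with exon length within the members. None of the 81 members of 3 to 9 bases was held by any count. Of the 104 members of 10 to 15 bases, 8 were held, and only the 14-base exon of the collagen chain Col5a2 was above 90% (20 of 20 counts, 95% Clopper-Pearson interval 83.2 to 100%). Of the 167 members of 16 to 21 bases, 59 were held and 24 were above 90%. Of the 333 members of 22 to 27 bases, 228 were held, 158 were above 90% and the median was 86.2%. Just outside the rule, exons of 28 to 30 bases had a median of 96.4%, and 171 of 221 were held. Intervals here and below cover counting error only, since reads that carry no molecular identifiers need not stem from separate molecules.

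**Figure D1:**
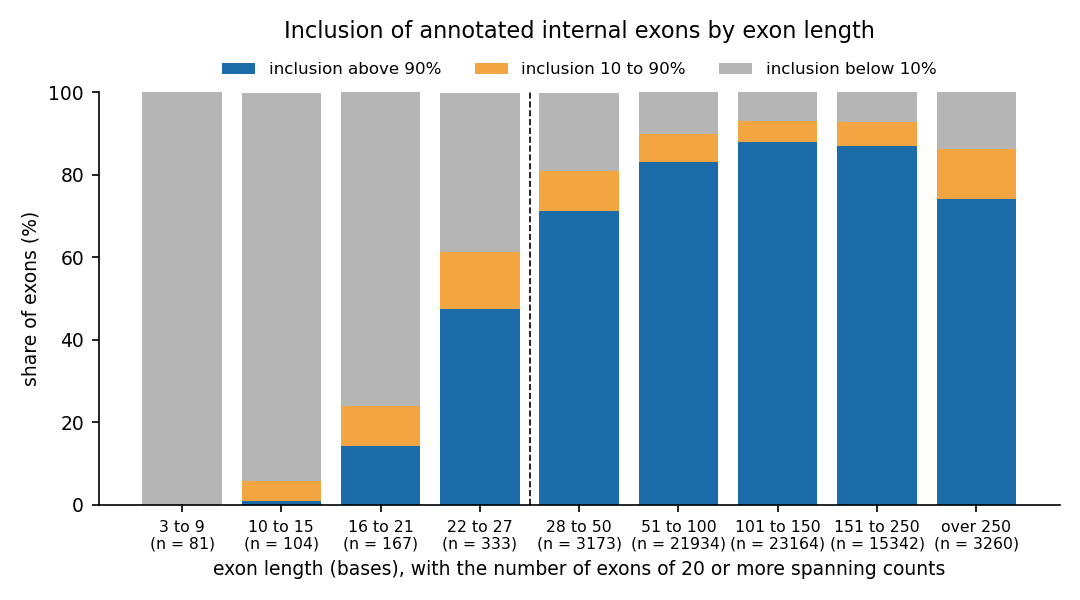
Share of annotated internal exons (%) with inclusion above 90%, of 10 to 90% and below 10%, by exon length in bases, for exons with at least 20 spanning counts summed over both libraries. The dashed line divides the microexons (left) from longer exons. All 81 exons of 3 to 9 bases lay below 10%, against 600 of 3173 exons of 28 to 50 bases.

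The order by length was also present among microexons with no annotated alternative. In 133 members the exon is part of every annotated transcript across its position, so that annotation names no form without it. Their median inclusion was 98.4%: 105 were above 90%, 9 were intermediate and 19 were below 10%. The 5 such members of 3 to 9 bases and the 4 of 10 to 15 bases had a median of 0%, the 24 of 16 to 21 bases 91.1% and the 100 of 22 to 27 bases 99.2%. Among longer exons held by every annotated spanning transcript, 33 of 36796 were below 10%.

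Where these 133 exons were missing, most counts did not join the exact ends of their neighbours. Of 5391 counts with an intron across such a microexon, 456 (8.46%) joined the exact ends of the flanking exons of an annotated transcript, while 4521 (83.9%) had 1 or both flanking exons extended into the intron by at most 40 bases. Both ends of the intron were annotated splice sites in 470 counts (8.72%), against 57.5% of 16127 such counts across longer exons. A few exons carried many of the counts, with 1081 at Atp2a2, 916 at Car14, 669 at Hacd1 and 442 at Bsg. By exon, extended flanks made up most of the intron counts in 49 of the 81 members that had any. Hacd1, a dehydratase of very-long-chain fatty acid synthesis, held its 19-base exon in none of 670 spanning counts, and in 667 of them the upstream exon was 27 bases longer than annotated. Capn2, the large subunit of a calpain protease, lacked its 12-base exon in all 245 counts, each with the upstream exon longer by 17 bases. Pitpnb, a phosphatidylinositol transfer protein, lacked its 8-base exon in all 148 counts, 147 of them with an upstream extension of 8 bases.

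In 3 highly included genes, Atp2a2, Bsg and Uqcrh, most introns across the exon also had an extended flank. Of the 120 members above 90% with any counts lacking the exon, an extended flank was the commonest form in 51, a longer exon in 28, exact flanks in 25 and another intron in 16. Atp2a2, the calcium pump SERCA2 of the sarcoplasmic reticulum, held its 18-base exon in 4962 of 5460 counts in replicate 1 (90.9%) and in 6192 of 6801 in replicate 2 (91.0%). Of its 1081 counts with an intron across the exon, 1050 shared an upstream exon extended by 4 bases and 2 had exact flanks. Bsg, basigin, which carries monocarboxylate transporters to the cell surface, held its 25-base exon in 3641 of 3875 and 3365 of 3581 counts (94.0% in both), and 383 of 442 intron counts shared a downstream exon extended by 28 bases. Uqcrh, the hinge protein of respiratory complex III, has its 21-base exon in 2 of 4 annotated spanning transcripts and held it in 452 of 473 and 322 of 337 counts, and all 27 intron counts had an upstream exon extended by 13 bases. The SD between the libraries was at most 0.118 percentage points in these 3 genes (n = 2).

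Exact flanks prevailed at a few exons. Mybpc3, cardiac myosin-binding protein C, has a 3-base exon in every annotated spanning transcript, and none of its 149 and 180 counts held it, 326 of the 329 with exact flanks. Of the 19 members without annotated alternative that lay below 10%, the commonest missing form had extended flanks in 14 and exact flanks in 3. In 2 of the 19 the extension was as long as the missing exon, and the median extension among the extended ones was 16.5 bases. Whether the extensions hold the bases of the missing exon was not tested. Nor was it tested whether reads with exact flanks at the shortest exons, such as that of Mybpc3, carried the bases of the exon.

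**Figure D2:**
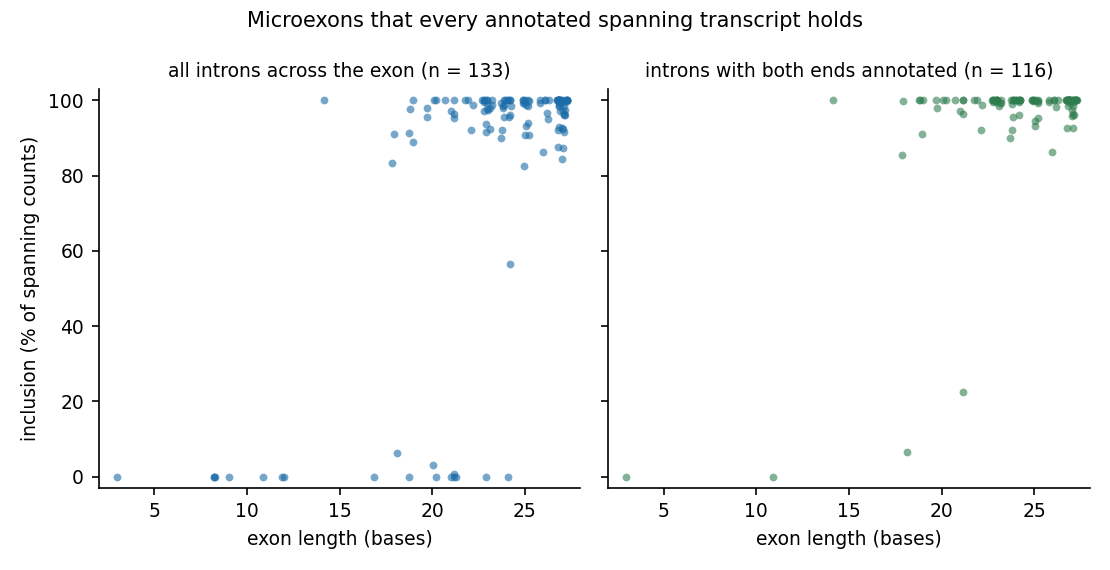
Inclusion (% of spanning counts) against exon length (bases) for microexons that every annotated transcript across the position holds, 1 point per exon, with a small horizontal scatter. The left panel counts all introns across the exon (133 exons, 19 below 10%). The right panel counts only introns with both ends at annotated splice sites (116 exons, 3 below 10%). This leaves out only counts without the exon, so inclusion could only rise or stay.

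Counting only introns whose ends are both annotated splice sites left 641 members with enough counts, of which 190 were above 90%, 58 intermediate and 393 below 10%. This setting leaves out only counts that lack the exon, so inclusion of an exon could only rise or stay. Of the members without annotated alternative, 109 of 116 were then above 90%, with a median of 100%. That was nearly fixed in advance, since only 470 of their 5391 intron counts had both ends annotated. Inclusion became 99.7% for Atp2a2, 99.9% for Bsg and 98.9% for Uqcrh. Of the 67 intermediate members, 57 stayed intermediate.

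**Figure D3:**
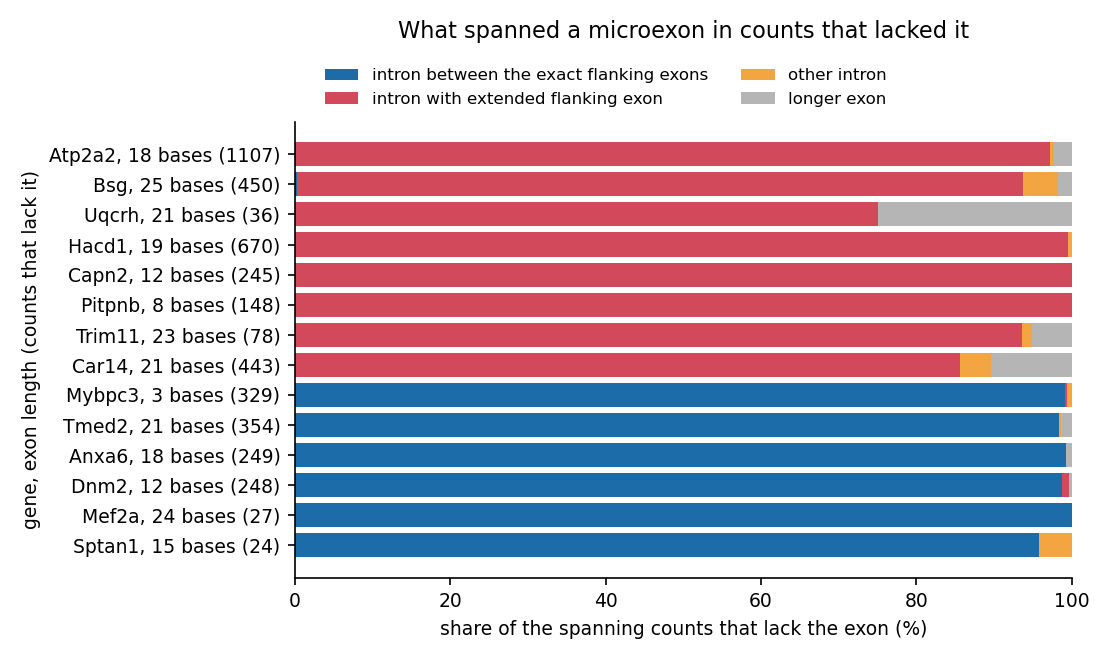
Share (%) of the spanning counts without the microexon that had an intron between the exact flanking exons, an intron with a flanking exon extended by at most 40 bases, another intron or a longer exon, for 14 microexons, with the number of such counts in parentheses. Extended flanks prevailed from Atp2a2 to Car14, and exact flanks from Mybpc3 to Sptan1. Whether counts with exact flanks at the Mybpc3 exon carried its bases was not tested.

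Most microexons of intermediate inclusion had a length that is a multiple of 3. In most of the intermediate members, exact flanks were the commonest form without the exon. How many had both traits was not counted. In 44 of the 67, the largest share of the counts without the exon joined the exact flanking exons, against 25 of the 120 highly included members with any count lacking the exon. A length that is a multiple of 3 was found in 52 of the 67 (77.6%), in 93 of 183 highly included members (50.8%), in 252 of 435 members below 10% (57.9%) and in 39.4% of all internal exons with enough counts. By annotation, 63 of the 67 were coding. The last base of the exon was G in 60 of the 67 (89.6%), in 137 of 183 highly included members (74.9%) and in 648 of all 835 (77.6%). Median GC content was 48.1% in the intermediate and 48% in the highly included members. These classes were cut from inclusion itself, so the shares are a description.

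Tmed2, Car14 and Anxa6 were the most-spanned intermediate members, and Car14 is described apart. Tmed2, a cargo receptor of vesicles between endoplasmic reticulum and Golgi, held its 21-base exon in 447 of 631 counts in replicate 1 (70.8%) and in 526 of 696 in replicate 2 (75.6%), together 73.3% (interval 70.9 to 75.7%). Of its 349 intron counts without the exon, 348 had exact flanks. Anxa6, a calcium-dependent phospholipid-binding annexin, held its 18-base exon in 320 of 446 and 315 of 438 counts (71.7% and 71.9%). Axl, a receptor tyrosine kinase, held a 27-base exon in 47 of 73 and 50 of 70 counts. The libraries overlapped in their intervals at all 3 exons.

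Trafficking and motor proteins followed. Dctn1, the p150 subunit of dynactin, which links dynein to its cargo, held the 21-base exon shown above in 105 of 165 and 119 of 175 counts, together 65.9% (60.6 to 70.9%). Dnm2, the dynamin that pinches off endocytic vesicles, held its 12-base exon in 24 of 153 and 42 of 161 counts (15.7% and 26.1%), and its other 12-base exon with the same neighbours in none of 314. Trappc9, a subunit of a vesicle-tethering complex, held a 27-base exon in 16 of 66 and 15 of 70 counts. Picalm, a clathrin assembly protein, held a 24-base exon in 14 of 35 and 18 of 35 counts (45.7%, 33.7 to 58.1%).

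Transcription factors and cytoskeletal proteins came next. Mef2a held its 24-base exon in 49 of 58 and 63 of 81 counts (84.5% and 77.8%), and Mef2d its 21-base exon in 25 of 45 and 27 of 45 (55.6% and 60.0%). Mef2c, the other measured member of this family of muscle transcription factors, held its 24-base exon in none of 31 counts, all with exact flanks, which allows up to 11.2%. Sptan1, the alpha chain of non-erythroid spectrin, held a 15-base exon in 21 of 30 and 25 of 40 counts (65.7%, 53.4 to 76.7%), an 18-base exon in 46 of 47 and 51 of 52, and a 24-base exon in none of 46. The 24-base exon is in every annotated spanning transcript, and 45 of the 46 counts had an upstream exon extended by 30 bases. Abi1, a regulator of actin branching, held 1 of its 15-base exons in 10 of 17 and 16 of 25 counts and the other in none of 42.

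Among the rest, Lrrfip1, which binds the actin regulator flightless, held its 18-base exon in 34 of 66 and 29 of 67 counts (51.5% and 43.3%). Tpd52l2, of the D52 family of trafficking proteins, held a 27-base exon in 30 of 94 and 21 of 99 counts, and Mars, the methionyl-tRNA synthetase, a 24-base exon in 12 of 72 and 21 of 96. Pecam1, an endothelial adhesion molecule, held a 23-base exon in 20 of 70 and 37 of 82 counts (28.6% and 45.1%). Hnrnpc, an RNA-binding protein of the nucleus, held a 26-base exon of the 5′ UTR in 43 of 63 and 39 of 82 counts (68.3% and 47.6%). A 20-base exon of Myl6, the light chain of non-muscle myosin, found in annotation only in a non-coding transcript, was held in 26 of 205 and 22 of 203 counts. The libraries differed most at Hnrnpc and Pecam1 among the 15 most-spanned intermediate members. Several of these exons were held only by models without a reference transcript identifier. When only models with such an identifier were counted, inclusion was 0 of 347 counts for Tmed2, 0 of 91 for Dctn1, 0 of 94 for Trappc9, 0 of 348 for Myl6, 0 of 26 for the Car14 exon at chr3:95902111-95902131 and 0 of 4 for Lrrfip1.

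**Figure D4:**
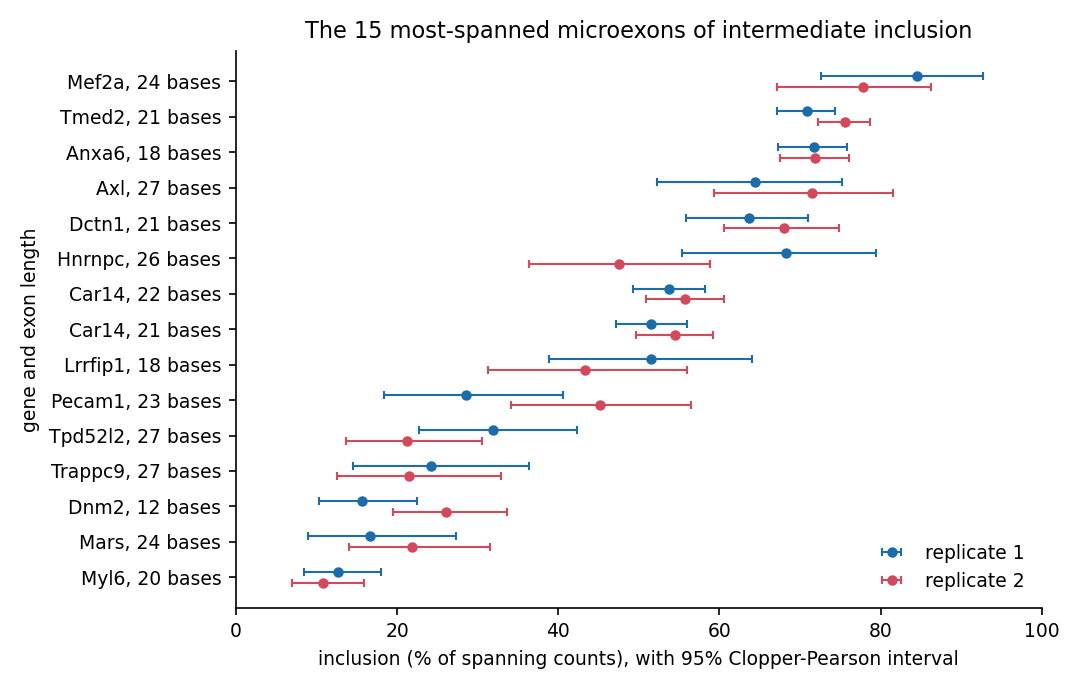
Inclusion (% of spanning counts) of the 15 most-spanned microexons of intermediate inclusion in replicate 1 and replicate 2, with 95% Clopper-Pearson intervals. The intervals of the libraries overlap at every exon, and the points lie between 10.8% (Myl6) and 84.5% (Mef2a).

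Car14, a carbonic anhydrase of the cell membrane, had values that depended on how models with unannotated splice ends were counted. Its 21-base exon was held in 264 of 512 and 233 of 428 counts (52.9%), and its 22-base exon in 270 of 502 and 237 of 425 (54.7%). Of the 397 counts with an intron across the 21-base exon none had exact flanks and 379 had an extended flank, most often 26 bases upstream. With annotated intron ends alone, inclusion was 89.7% and 92.9%. A further 21-base exon of Car14, in its only annotated spanning transcript, was held in 7 of 934 counts, 900 of which had a downstream exon extended by 22 bases. With annotated intron ends alone it was held in 7 of 31 counts (22.6%).

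No member passed the test between the libraries. Of 480 members with at least 20 spanning counts in each library, 0 passed an adjusted p of 0.05 in a two-sided Fisher's exact test with Benjamini-Hochberg adjustment over 44344 internal exons, of which 15 (0.0338%) passed. At an unadjusted p under 0.05 there were 5 members (1.04%) and 451 exons (1.02%). These 5 were exons of Col6a1, Dnm2, Ghr, Hnrnpc and Pecam1, with unadjusted p of 0.0217, 0.0268, 0.015, 0.0177 and 0.044 and an adjusted p of 1 each. Over the 47 intermediate members tested, the median absolute difference was 5.64 percentage points and the largest 30. Inclusion was higher in replicate 1 in 25 of them and in replicate 2 in 20. When only introns with annotated ends were counted, the Atp2a2 exon passed (4962 of 4987 counts against 6192 of 6195, adjusted p = 0.00368 in the same Fisher's exact test). Of the counts without the exon under this setting, 26 over both libraries had a longer exon across it and 2 an intron.

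Because each count is 1 read across several exons, inclusion of a microexon could be compared between molecules with and without a second alternative exon of the same gene. Of 98 such pairs in 39 genes, both exons being intermediate, 37 (37.8%) passed an adjusted p of 0.05 in a two-sided Fisher's exact test with Benjamini-Hochberg adjustment over the pairs, in 16 genes, and 43 had an unadjusted p under 0.05. In 32 of the 37 the exons occurred together and in 5 they avoided each other. Pairs of 1 gene share reads, and Lrrfip1 alone gave 12 of the 37, so pairs are not independent. The p-values rest on counting error.

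Lrrfip1 held its 18-base exon in 61 of 62 counts that contained a 66-base exon further downstream and in none of 69 that lacked it (adjusted p = 1.5e-35, Fisher's exact test). Over the 12 Lrrfip1 pairs, microexon inclusion was 80.0 to 98.4 percentage points higher with the second exon than without it. Of the 70 intron counts without the microexon, 64 shared 1 intron that also ran across the 66-base exon. In those counts the absence of both exons was 1 splicing event. The 22-base and 21-base exons of Car14 were both present in 490 and both absent in 412 of 914 counts (adjusted p = 9.2e-245, Fisher's exact test), with the models of unannotated ends described above among them. At the 22-base exon 334 of 397 intron counts shared 1 intron that crossed both exons, so in them the absence of both was 1 intron. Of the 397, 381 had an unannotated end. Whether the extended flank holds bases of the missing exons was not tested. In Col6a2, a chain of type VI collagen, 2 neighbouring 27-base exons were both present in 96 and both absent in 14 of 110 counts, and in none was 1 without the other. With annotated intron ends alone these exons were held in 99 of 99 and 96 of 96 counts, and the pair did not enter the test. Herc3, a ubiquitin ligase, held its 24-base exon in all 22 counts with a 90-base exon and in none of 17 without it, but all 17 came from replicate 2, and all had an unannotated extension of 26 bases downstream.

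Tpd52l2 and its relative Tpd52 each held a 27-base microexon mostly together with a 42-base exon. In Tpd52l2 the microexon was in 47 of 81 counts with the 42-base exon and in 2 of 107 without it, and in Tpd52 in 13 of 14 and 10 of 78 (adjusted p = 6.6e-19 and 3.0e-08, Fisher's exact test). Most Tpd52l2 intron counts without the microexon shared 1 intron that also ran across the 42-base exon. In those counts the absence of both exons was 1 splicing event. In Tpd52 the relation turned around when only models with reference identifiers were counted (difference -13 percentage points, adjusted p = 1 in Fisher's exact test). Dnm2 showed the opposite arrangement. Its 12-base exon was in none of 82 counts with a 30-base alternative exon and in 66 of 232 without it (adjusted p = 9.9e-10, Fisher's exact test). Dnm2 also has a pair of alternative exons of 139 bases each, and the microexon was in 48 of 178 counts with the first of them and in 17 of 133 with the second (differences of 13.6 and -14.3 percentage points from counts without each, adjusted p = 0.0106 and 0.00695 in the exact test).

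Of 6 tested pairs with a MEF2 microexon, 5 passed the test, and all 6 were chosen for description after their values were seen. Mef2a held its 24-base exon in 71 of 79 counts with a 138-base exon (89.9%) and in 36 of 53 without it (67.9%), a difference of 21.9 percentage points (adjusted p = 0.0089, Fisher's exact test over all 98 pairs). With the alternative 132-base exon the difference was -20.3 points (adjusted p = 0.017 in the exact test). Mef2d held its 21-base exon in 23 of 27 counts with a 135-base exon (85.2%) and in 24 of 46 without it (52.2%), and with the alternative 138-base exon the difference was -31.9 points (adjusted p = 0.0164 and 0.0273 in the exact test). In these 4 pairs the direction was the same in replicate 1 and replicate 2. The 2 alternative exons of each gene gave near mirror images of the same counts, so the 4 pairs are not separate results. Mef2d also held its exon in 50 of 77 counts with a downstream 307-base exon and in 2 of 13 without it, a difference of 49.6 points (adjusted p = 0.00506 in the exact test). With a 53-base exon further upstream, inclusion in Mef2a differed by -0.51 points (adjusted p = 1 in the exact test).

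**Figure D5:**
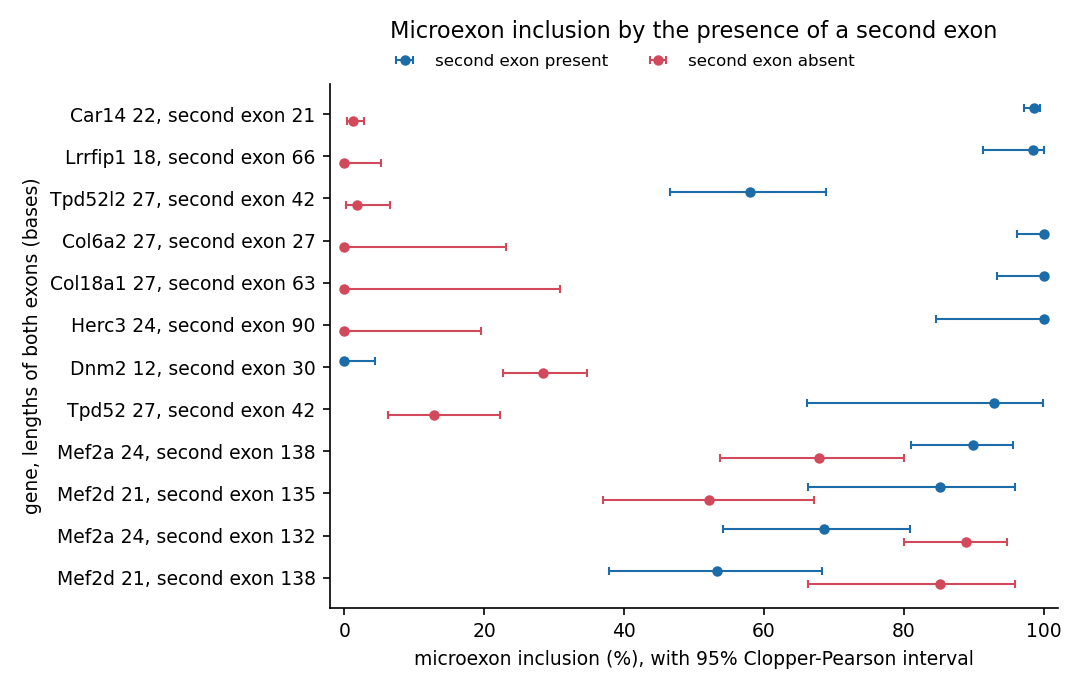
Microexon inclusion (%) in counts with and without a second alternative exon of the same gene, with 95% Clopper-Pearson intervals, for the 8 pairs of smallest p, 1 a gene, and for 4 pairs of Mef2a and Mef2d. Numbers beside the gene are exon lengths in bases. Presence of the second exon went with higher microexon inclusion except in Dnm2, in Mef2a with the 132-base exon and in Mef2d with the 138-base exon.

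The most-spanned members above 90% after Atp2a2 and Bsg were held in 94.3 to 100% of their counts. Gpx4, which reduces lipid peroxides, held its 25-base exon in all 667 and all 558 spanning counts. Rpl41, a ribosomal protein, held a 23-base exon in 633 of 633 and 449 of 450, and Atp5mpl, a small subunit of ATP synthase, a 24-base exon in 518 of 519 and 318 of 319. Poldip2, a polymerase-interacting protein, held a 27-base exon in 496 of 499 and 445 of 450 counts. A 25-base exon of Rpl41, which 1 of 7 annotated spanning transcripts holds, was in 587 of 620 and 414 of 442 counts.

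Much-spanned members below 10% were of different kinds. A 13-base exon of Sdha, a subunit of succinate dehydrogenase, lay inside a longer exon in 4394 of 4395 counts, and a 21-base exon of Hadha, of fatty acid oxidation, in 2922 of 2930. The 27-base exon of Cox5b, of cytochrome oxidase, lay inside a longer exon in 2191 of 2192. Fastk, a mitochondrial kinase-like protein, held a 21-base exon in 6 of 809 and 3 of 812 counts, and in 0 of 1397 when only models with a reference identifier were counted. Casq2, the calcium store protein of the sarcoplasmic reticulum, has a 9-base exon in 1 of 4 annotated spanning transcripts, and 2818 of its 2820 counts joined the exact flanks. Over all 435 members below 10%, a longer exon crossed most counts in 164 and an intron in 271. After the Mybpc3 exon shown above, the most spanned of the 8 exons of 3 bases with enough counts were those of Cyth2, Rwdd4a and Map4k5 and another of Mybpc3, with 0 of 202, 80, 71 and 250 counts. Flanks were extended in 149 of 201 intron counts at Cyth2 and 76 of 80 at Rwdd4a, and exact in all 71 at Map4k5. At the other Mybpc3 exon 214 of 250 intron counts had an unannotated end.

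Of the genes known for muscle microexons, several showed none. Ldb3, a Z-disc protein, held neither its 15-base nor its 23-base exon in 671 and 670 counts, and at each exon 661 counts shared 1 intron across it. Tnnt2, cardiac troponin T, held none of 6 annotated exons of 9 to 13 bases, with 411 spanning counts at the 9-base exon furthest downstream and 108 to 116 at the others. In 86 of 108 counts at its 11-base exon the flank was extended. At each Tnnt2 exon but the one furthest downstream, 97 or 98 intron counts had an unannotated end. With annotated intron ends alone these exons had only 11 to 18 spanning counts. Ryr2, the calcium release channel, held none of 3 exons of 7, 15 and 21 bases in 56 counts each, and at the 15-base exon all 56 had extended flanks. At its 7-base exon all 56 introns had an unannotated end, and at its 21-base exon 55 of 56 counts had a longer exon across it. Kif1b, a kinesin, held an 18-base exon in none of 55 counts, 52 of them with exact flanks, and Bin1, which shapes T-tubules, a 24-base exon in none of 29. The rule found no microexon in Camk2d, Camk2g, Clta, Cltb, Ptprf or Itga7.

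Members of gene lists drawn up by role are described by counts, without a test. For all 685 members, 26.7% were above 90% and 9.78% intermediate. Of 33 members of membrane traffic and signalling genes, 1 was above 90%, 11 were intermediate and 21 below 10%, with Tmed2, Pacsin2, Dnm2 and Git1 the most spanned; Pacsin2 held its 6-base exon in none of 405 counts and Git1 its 27-base exon in 3 of 114. Of 31 members of cytoskeleton and junction genes, 2 were above 90% (Mark3 with 198 of 209 counts among them), 5 were intermediate and 24 below 10%. Of 7 members of transcription factor and chromatin genes, 3 were intermediate and 4 below 10%, among them the 12-base exon of the histone demethylase Kdm1a, at 0 of 125 counts with exact flanks throughout. Mef2d stood in this list and in that of membrane traffic and signalling, so its intermediate exon was counted in both.

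Sarcomere and Z-disc genes held 28 members with enough counts, 6 above 90%, 1 intermediate and 21 below 10%. Pdlim5, a Z-disc protein, held an 18-base exon in 322 of 340 and 341 of 369 counts and 4 other microexons in none of 709, and Myom1, which crosslinks thick filaments, held 1 of its 23-base exons in 270 of 284 and 355 of 364 counts and the other in none of 645. Myom2 held its 23-base exon in 337 of 338 and 275 of 278 counts. With annotated intron ends alone, the 4 other Pdlim5 microexons had 123 to 125 spanning counts, and none held them. Of 14 members of calcium handling and channel genes, 8 were above 90%, 1 was intermediate and 5 below 10%. Trdn, which anchors the calcium store at the release channel, held 7 microexons of 18 to 27 bases, 6 of them above 90% (the lowest at 23 of 25 counts) and the 18-base exon in 35 of 42. Of 19 adhesion and matrix members, 8 were above 90%, 2 were intermediate and 9 below 10%.

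A pair of gene families, chosen after their values were seen, repeated a single microexon length. Collagen chains, whose triple helix repeats glycine at regular steps, had 24 members in 8 genes, 15 of them of exactly 27 bases. Of the 18 with enough counts 11 were above 90%, 3 intermediate and 4 below 10%. The letters GGNNNNNNNGGNNNNNNNGGNNNNNNN, searched on the coding strand over the whole exon, matched 13 of the 15 collagen exons of 27 bases, 2 exons of Colq, a collagen-like protein, and none of the other 27-base members, or 15 of all 128 (11.7%). The repeated GG is in capitals in 5 of them.
Col4a1, 27 bases, chr8:11240041-11240067, - strand: GGtcagaaaGGtgaacctGGatttccg
Col4a1, 27 bases, chr8:11245058-11245084, - strand: GGaccaccaGGgttaccaGGaatgaag
Col6a2, 27 bases, chr10:76611163-76611189, - strand: GGtgaatttGGatcggatGGtcggaag
Col6a2, 27 bases, chr10:76611416-76611442, - strand: GGtgtgcctGGcttcaagGGagagaag
Col18a1, 27 bases, chr10:77076148-77076174, - strand: GGtgatgtgGGcatcccaGGacccaag

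The Col4a1 exons were held in 604 of 622 and 592 of 593 counts, those of Col6a2 in 99 of 113 and 96 of 110, and that of Col18a1 in 54 of 64. Tripartite motif genes, many of which are ubiquitin ligases, had 11 members in 10 genes, and in 9 of these genes 1 member of exactly 23 bases, out of 52 members of this length in all. Between any pair of the 9 exons, 4 to 17 of the 23 bases were identical (median 9), with no base shared by all, and Trim11 and Trim27 were the most alike. The sequences of those 2 and of 3 sarcomere-associated members are shown, and they include some of the most alike pairs, with 17 identical bases between Trim11 and Trim27, 15 between Trim54 and Trim63, and 13 between Trim55 and each of Trim54 and Trim63.
Trim11, 23 bases, chr11:58988725-58988747, + strand: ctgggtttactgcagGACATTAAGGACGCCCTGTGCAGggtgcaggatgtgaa
Trim27, 23 bases, chr13:21188041-21188063, + strand: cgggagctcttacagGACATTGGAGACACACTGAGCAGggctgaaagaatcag
Trim54, 23 bases, chr5:31136753-31136775, + strand: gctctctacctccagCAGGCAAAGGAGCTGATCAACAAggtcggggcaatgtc
Trim55, 23 bases, chr3:19671407-19671429, + strand: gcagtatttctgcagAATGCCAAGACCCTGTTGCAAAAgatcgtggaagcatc
Trim63, 23 bases, chr4:134325045-134325067, + strand: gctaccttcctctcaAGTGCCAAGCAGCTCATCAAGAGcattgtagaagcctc

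Of the 9, 7 were above 90%. Trim63 and Trim55, muscle-specific ubiquitin ligases, held the exon in 543 of 579 and 358 of 388 counts, Trim54 in 444 of 450 and Trim35 in 546 of 558. Trim11 held it in none of 78, and 73 of those counts shared a downstream exon extended by 26 bases.

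Levels of a list of splicing regulators are given for reference. They are in CPM, as mean ± SD of the 2 libraries, and 31 of 35 listed regulators were detected. The highest were Rbm38 (424 ± 37.0), Rbm24 (286 ± 2.92), Pcbp1 (281 ± 14.9), Qk (266 ± 22.3), Mbnl2 (194 ± 2.60) and Khdrbs3 (173 ± 28.6). Rbm24, Mbnl2 and the quaking protein Qk are splicing factors of muscle. Rbfox2 (38.1 ± 2.14), Ptbp1 (31.1 ± 1.21), Mbnl1 (29.2 ± 6.55), Rbfox1 (13.2 ± 1.28) and Ptbp2 (10.8 ± 0.707) were lower. Srrm4, the main activator of neuronal microexons, had 3 and 4 counts and its relative Srrm3 none, while Nova1 had 2 and 1 and Nova2 4 in each. A read count per gene was not divided by transcript length, as each count is 1 read.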

How the data were processed

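The deposited files give, per library, counts of reads per transcript model, deposited by the authors as raw whole numbers, per the file headers, and the exons of each model on mm10 with GENCODE M21 genes, per the file notes. New models carry the source name TALON. The aligner, tool versions and filters were not given in the sources used here. Each model was set against each annotated internal exon: it held the exon exactly, crossed it with an intron or with a longer exon, or overlapped it in part, and the last kind did not count as spanning. Annotation, coding parts and sequences came from GENCODE M21, with sequences on chromosome 18 left out. Depth was 1107678 and 1110707 counts. An inclusion of 0 carries its Clopper-Pearson upper limit at 95%, and tests rest on counting error, not on spread between animals.

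Fisher's exact test, two-sided, compared inclusion between libraries for internal exons with 20 spanning counts in each library, and between molecules with and without a second exon for pairs of exons of 10 to 90% inclusion with 20 shared counts. Both were adjusted by the Benjamini-Hochberg method at 0.05, and the code was tested on simulated data. Python 3.11.15, numpy 2.4.6, pandas 2.3.3, scipy 1.17.1, statsmodels 0.14.6 and matplotlib 3.10.9 were used.

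The members, gene lists, tests and naming rule were chosen with earlier results of these data known. By rule the text names, among members with 20 spanning counts, the 15 most-spanned intermediate, 8 highest-spanned above 90% and 5 below 10%, the 5 shortest, any past the test between libraries, members of 17 genes known for microexons, the 8 pairs of smallest p (1 a gene), up to 4 genes of each list, and of the regulators the 6 highest and 10 set ones. Other members, the MEF2 pairs, and the collagen and Trim families were named after their values were seen. There were 47 planned and 5 added alternatives.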

Additional observations from a re-analysis of the deposited data

Results flagged for a closer look

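Microexons outside the annotation were looked for in the models, as data the comparisons above do not use. In all, 27 exons of 3 to 27 bases that overlap no annotated exon were held in either library and 6 in both. An exon of Fermt2, the kindlin-2 integrin activator, of 21 bases (chr14:45462715-45462735, mm10) had 254 counts in both libraries, far above the 3 counts taken as the floor. It was held in 141 of 240 counts in replicate 1 and 113 of 200 in replicate 2, together 57.7% (95% Clopper-Pearson interval 53 to 62.4%). A second Fermt2 exon, of 24 bases (chr14:45463246-45463269), had 90 counts, 47 of 240 and 43 of 200, together 20.5% (16.8 to 24.5%). Both lengths are multiples of 3, and both exons were seen at like inclusion in each library. There is no control group to set them against, and no cause was tested.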

How the results depend on the processing

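The number of intermediate microexons (67) was 24 with models of reference identifiers only, 40 with models of at least 2 counts and 42 with a minimum of 50 spanning counts, and 48 and 57 without replicate 2 and without replicate 1. Members with enough counts fell from 685 to 441 with reference identifiers only. The median inclusion of 0% became 4.57% when only introns counted as lacking the exon, and stayed 0% under all other settings run. The number of members (835) was 1538 with no minimum count of a gene and 231 for exons of 3 to 15 bases. In the test between libraries the count of 0 members became 1 with annotated intron ends only (a setting chosen after seeing the data) and stayed 0 under the 6 other settings run. The 37 linked pairs were 10 with reference identifiers only, 74 for exons of 5 to 95% inclusion, and 27 and 28 without replicate 1 and without replicate 2; the Tpd52 pair reversed with reference identifiers only (-13 points, adjusted p = 1 in Fisher's exact test). Of the 8 named pairs, Herc3 did not enter the test without replicate 2, Col6a2, Col18a1 and Herc3 not with annotated intron ends only, and with reference identifiers only Tpd52l2 and Tpd52 alone did. Regulator levels summed to 2470 CPM, and to 1990 with reference identifiers only. Of the 54 named exons, inclusion moved by more than the SD between libraries or the counting interval in 19 with reference identifiers only. Under that setting 18 stayed and the rest were not compared. Inclusion moved in 11 with models of at least 2 counts, 9 with introns only and 7 without incomplete and genomic models. With annotated intron ends 6 moved and 45 stayed, and with partial overlaps counted 3 moved. Without either replicate none moved. That result was nearly fixed in advance, since each of 2 libraries lies within their SD of the mean. No paired analysis was possible because there is 1 group. Precision is set by the spanning counts (the 14-base Col5a2 exon, at 20 counts, has a lower limit of 83.2%), and the labels do not show that the libraries are different animals.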

Other observations

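Among the other unannotated microexons seen in both libraries, a 23-base exon of Myl2, the ventricular regulatory light chain of myosin, was held in 6 of 57 counts in replicate 1 and 17 of 63 in replicate 2, together 19.2% (95% Clopper-Pearson interval 12.6 to 27.4%). A 21-base exon of Phldb2 had 1 of 11 and 2 of 11 counts, and a 15-base exon of Actr2, a subunit of the Arp2/3 complex, 1 of 20 and 1 of 17. The shortest of the 6 had 15 bases and their median length was 22, so none was as short as the annotated exons of 3 to 9 bases, which no count held.

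Annotated microexons were spread thinly over genes: 528 genes held 1, 79 held 2, and Trdn held the most with 7. Macf1 and Tnnt1 had 6 annotated members each and none with 20 spanning counts.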
